A study of Mus musculus with 12 samples.

Results

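The 53 genes described here encode the machinery of mitosis, followed across 5 sorted populations of mouse dendritic cells (DCs) and their progenitors. They were chosen by name, as regulators, structural parts and enzymes of cell division, with earlier results of these data known. Each was read from the probe set that carries its symbol alone, taking the brightest where a gene had several. This left 52 of the 53, among 22184 genes measured in the same way. The only probe set of the condensin subunit Ncapg also carries a second symbol, so Ncapg entered no comparison.

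RNA was measured on 12 Affymetrix whole-transcript arrays. CD24 DCs (n = 3) and CD172a DCs (n = 2) were sorted from spleen, and pre-CD8 progenitors (n = 2), pre-CD4 progenitors (n = 2) and common DC progenitors (CDPs, n = 3) from bone marrow. All mice, the CDP donors included, were Zbtb46GFP/+, that is, 1 of their Zbtb46 alleles carried a GFP reporter (Zbtb46 encodes a factor characteristic of classical DCs). They were C57Bl/6 mice at steady state, taken from 8 to 10 littermates per the series description, and their age is not given in the sources used here. CD24 DCs were gated as positive for CD11c and CD24 and negative for CD172a, and CD172a DCs as positive for CD172a, CD11c and MHC class II. The usual names of these lineages are cDC1 for CD24 DCs and cDC2 for CD172a DCs. Pre-CD8 cells were lineage-negative, CD135+ CD11c+, CD117 and MHC class II intermediate and negative for Siglec H. Pre-CD4 cells were lineage-negative, CD135+ CD115+ CD11c+, CD117 low and negative for MHC class II, and CDPs lineage-negative, CD135+ CD115+, CD117 intermediate and negative for CD11c and MHC class II. The design sets each spleen DC against the marrow progenitor of its lineage, the progenitors against CDPs, and the 2 lineages against each other. The labels do not say if replicate arrays stand for separate mice or for pools, so the p-values measure only the spread between arrays, which may be technical.

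Mitosis is driven by the kinase CDK1 with its cyclin partners, which are made again in each cycle and destroyed at its end. The kinetochore ties each chromosome to spindle microtubules, the spindle checkpoint holds back the anaphase-promoting complex (APC/C) until all are attached, and kinesins, condensins and the cytokinesis machinery then part the chromosomes and the daughter cells. Transcripts of these genes are made mostly in G2 and M phase, so their level in a bulk sample is widely read as a sign of cycling cells. DCs are replenished by division of marrow progenitors, and mature DCs in spleen are known to divide less.

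Values are log2 signals as deposited, so a difference of 1 is a 2-fold change. The arrays had medians of 4.89 to 5.24 over all genes and interquartile ranges of 2.10 to 2.86, the narrowest in CD24 DC 3 and the widest in CDP 1. Markers of the sorts followed the labels in part. Xcr1, a chemokine receptor of cDC1s, averaged 10.10 in CD24 DCs against 5.71 in CD172a DCs, and Irf4, a transcription factor of cDC2s, averaged 5.47 in CD24 DCs against 8.46 in CD172a DCs. H2-Aa, an MHC class II chain, averaged 11.65 in CD24 DCs, against the label that calls their gate MHC class II negative, and 11.12 in CD172a DCs. It averaged 8.56 in pre-CD4 cells, whose gate was likewise MHC class II negative, against 4.76 in CDPs (difference 3.79, limma adjusted p = 0.000158). Csf1r, which encodes CD115, averaged 6.53 in pre-CD8 cells, 8.80 in pre-CD4 cells and 9.14 in CDPs. Kit, which encodes CD117, averaged 9.71 in CD24 DCs and 9.70 in CD172a DCs, above its 9.04 in pre-CD8 cells, 5.95 in pre-CD4 cells and 8.24 in CDPs. Genes were compared with limma in 1 fit over the 12 arrays, and a gene is called where the Benjamini-Hochberg adjusted p over all 22184 genes is under 0.05.

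Promoters of mitosis genes are known for a short element, the cell cycle genes homology region (CHR), bound by the DREAM and MMB complexes, often with CCAAT boxes, bound by NF-Y, upstream of it. RefSeq promoters (GRCm38.p6, 250 bases before to 50 after each start) were available for 45 of the 53 genes, as 50 promoters. Those of Aurkb, Pbk, Tpx2, Spc24, Smc4, Kif20a, Ccna2 and Incenp were not matched. The 6 windows printed here, 150 bases each, 5′ to 3′ from 120 bases before to 30 after the start, were picked by the falls described further on. Anln and Ube2c had the largest falls in CD24 DCs among members whose window holds the motif. Ttk and Cenpf had large falls in CD172a DCs and hold it too, so the choice fixes that these windows hold it. Plk1 and Kif14, whose promoters from 250 bases before to 50 after the start also hold it, fell more than Cenpf in CD172a DCs and are not printed. Members with larger or similar falls but no motif, such as Birc5, were passed over. Cenpm and Espl1 had the smallest falls in CD172a DCs among members with a promoter sequence. Capitals mark TTTGAA or TTCGAA on either strand and CCAAT on either strand, which reads TTCAAA or ATTGG where the element lies on the other strand.
Anln (chr9:22389177-22389326, minus strand): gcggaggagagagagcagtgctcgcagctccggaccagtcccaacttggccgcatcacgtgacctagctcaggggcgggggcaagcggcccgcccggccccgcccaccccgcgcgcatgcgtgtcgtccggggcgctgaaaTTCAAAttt
Ube2c (chr2:164769809-164769958, plus strand): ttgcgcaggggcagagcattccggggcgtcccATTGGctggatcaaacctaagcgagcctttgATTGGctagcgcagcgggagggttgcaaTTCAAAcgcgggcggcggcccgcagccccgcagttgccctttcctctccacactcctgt
Ttk (chr9:83834569-83834718, plus strand): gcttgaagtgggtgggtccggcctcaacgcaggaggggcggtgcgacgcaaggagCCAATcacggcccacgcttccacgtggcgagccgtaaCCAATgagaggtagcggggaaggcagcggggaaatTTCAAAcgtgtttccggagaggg
Cenpf (chr1:189688057-189688206, minus strand): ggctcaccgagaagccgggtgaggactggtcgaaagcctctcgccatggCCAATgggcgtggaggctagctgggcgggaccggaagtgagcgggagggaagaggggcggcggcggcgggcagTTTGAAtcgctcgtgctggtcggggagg
Cenpm (chr15:82244307-82244456, minus strand): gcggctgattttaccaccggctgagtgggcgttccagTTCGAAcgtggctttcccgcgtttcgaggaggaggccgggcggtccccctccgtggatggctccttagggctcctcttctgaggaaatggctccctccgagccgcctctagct
Espl1 (chr15:102296173-102296322, plus strand): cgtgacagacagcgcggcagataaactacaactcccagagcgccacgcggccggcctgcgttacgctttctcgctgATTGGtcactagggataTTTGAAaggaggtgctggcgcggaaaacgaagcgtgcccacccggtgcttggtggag

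Counted from the start, the motif began at base -29 in Ube2c, -27 in Espl1 and -83 in Cenpm. In Anln, Ttk and Cenpf it began after the start, at base 22, 8 and 3. A CCAAT box stood upstream of it in Ube2c, Ttk, Cenpf and Espl1, and no CCAAT lay in the printed windows of Anln and Cenpm. TTTGAA or TTCGAA occurred in 40 of the 50 member promoters, or 80.0%, against 6316 of all 32851 promoters of that length, or 19.2%. From 100 bases before to 50 after the start, the shares were 72.0% of member promoters and 8.59% of all promoters. CCAAT occurred in 78.0% of member promoters and 37.4% of all, and a CCAAT 20 to 45 bases before the motif in 42.0% and 1.11%. For promoters of other mitosis genes, described further on, the motif share was 55.9%, for DNA replication genes 20%, and for G1 cyclins and CDK inhibitors 6.67%. The letters were not found in the windows of Melk, Mad2l1, Birc5, Cenpe, Cenpk, Nuf2, Nusap1 and Ncaph. These matches describe letters, not binding.

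**Figure D1:**
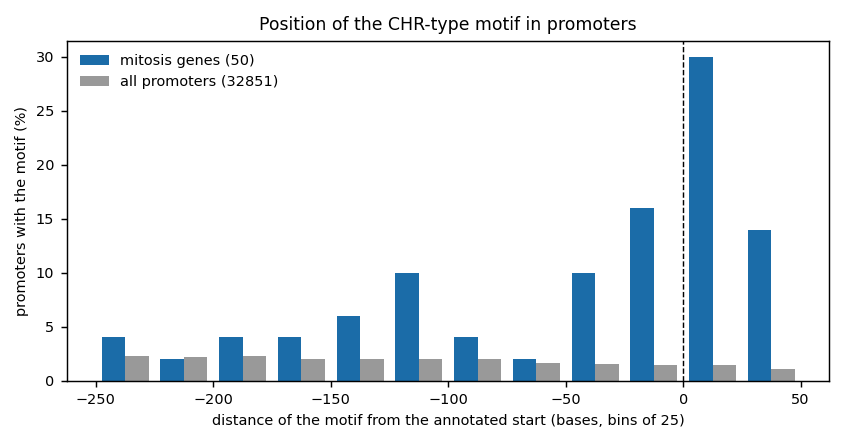
Share of promoters (%) with TTTGAA or TTCGAA starting in each bin of 25 bases, by distance from the annotated start (bases), for the 50 mitosis gene promoters (blue) and all 32851 promoters (grey). The blue bars are highest just around the start, while the grey bars stay low along the whole window.

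Across the 5 populations the mitosis genes split into marrow and spleen. In all 52 members every one of the 7 marrow arrays lay above every one of the 5 spleen arrays, which held for 1380 of all 22184 genes, or 6.22%. Over the members, the median log2 value on each array was 6.64, 6.42 and 5.86 in CD24 DCs and 6.47 and 6.60 in CD172a DCs. It was 8.96 and 8.90 in pre-CD8 cells, 9.20 and 9.32 in pre-CD4 cells and 8.62, 8.66 and 8.74 in CDPs. The pre-CD4 mean was the highest of the 5 in 51 members, and the CDP mean in the other, Cenpk. The lowest mean was that of CD24 DCs in 38 members and that of CD172a DCs in 14. The smallest gap between the lowest marrow and the highest spleen array was 0.33 for Smc4, and the largest 2.38 for Ttk. In bulk samples, fewer dividing cells and less mitotic RNA per cell cannot be told apart, and tissue and maturity differ together between these groups, so these cannot be told apart either.

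**Figure D2:**
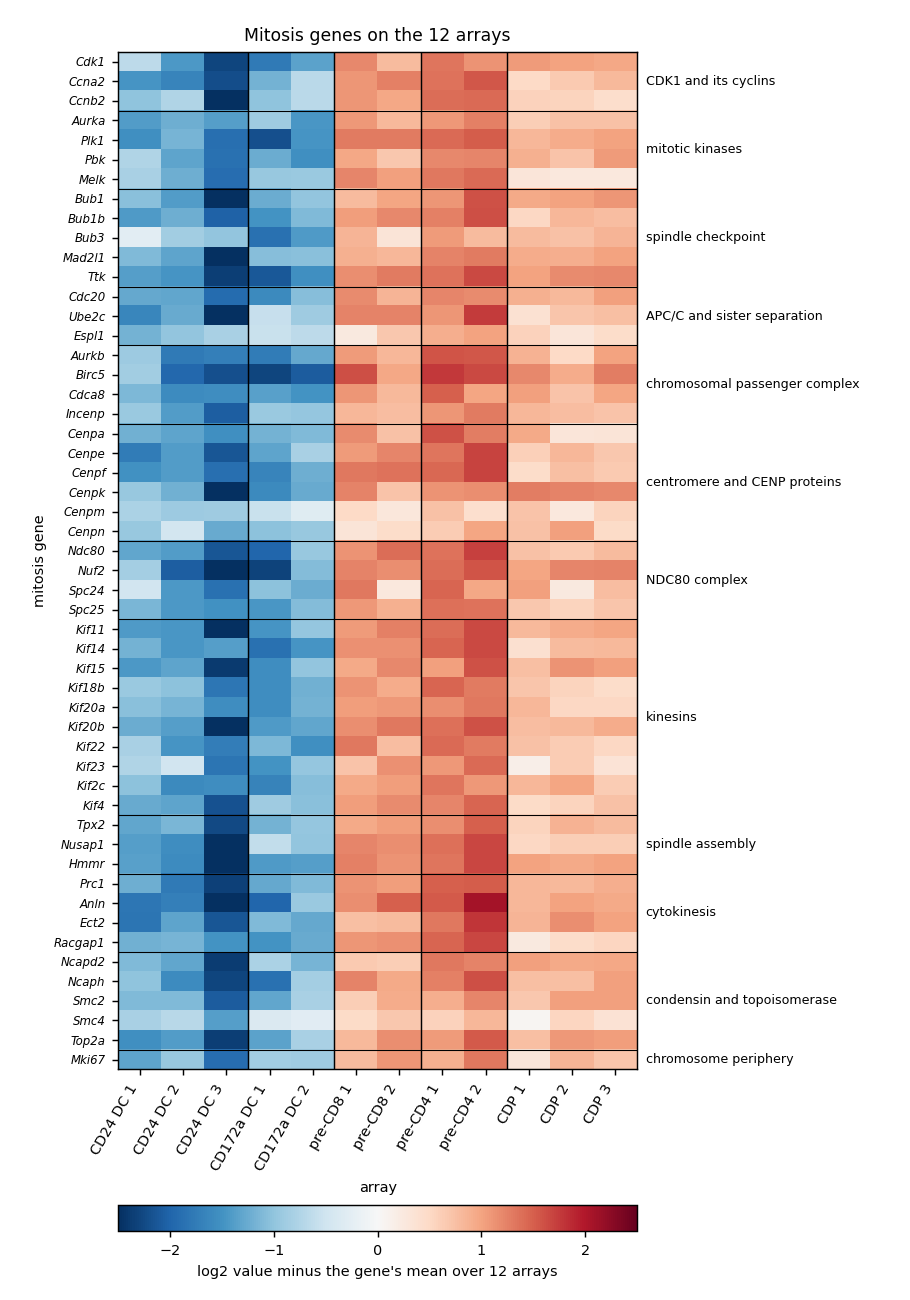
Log2 value of each of the 52 mitosis genes minus its own mean over the 12 arrays (colour), with arrays across and genes down by role. The 5 spleen arrays are blue and the 7 marrow arrays red in nearly every row, CD24 DC 3 has the deepest blue, and the pre-CD4 arrays the deepest red.

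The fall covered every role. In CD24 DCs against pre-CD8 cells, 52 of 52 members were called lower, where 3.66% of all genes were. The median difference was -2.53, with a range of -3.37 for Anln to -1.24 for Cenpm, beside a median of 0.05 over all genes. In CD172a DCs against pre-CD4 cells, 52 of 52 were called lower, where 8.02% of all genes were. The median was -2.58, with a range of -3.90 for Birc5 to -0.99 for Cenpm, beside 0.09 over all genes. The arrays did not overlap in 52 of 52 members in either comparison, where 14.1% of all genes were lower without overlap in CD24 DCs than in pre-CD8 cells and 26.3% in CD172a DCs than in pre-CD4 cells. Members were 32 of the 100 genes with the largest falls in CD24 DCs against pre-CD8 cells and 21 of the 100 in CD172a DCs against pre-CD4 cells. They made up 6.4% of the genes called lower in the first comparison and 2.92% in the second. The spleen arrays had narrower interquartile ranges (2.10 to 2.59) than the marrow arrays (2.48 to 2.86). With that range as a covariate, 52 members were still called lower in CD24 DCs against pre-CD8 cells and 45 in CD172a DCs against pre-CD4 cells, with medians of -2.23 and -2.02. The calls lost in CD172a DCs were those of Ccnb2, Cenpk, Cenpm, Smc4, Bub1, Spc24 and Ube2c, at differences of -0.72 (Cenpm) to -1.70 (Ube2c) and adjusted p of 0.0709 to 0.328.

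**Figure D3:**
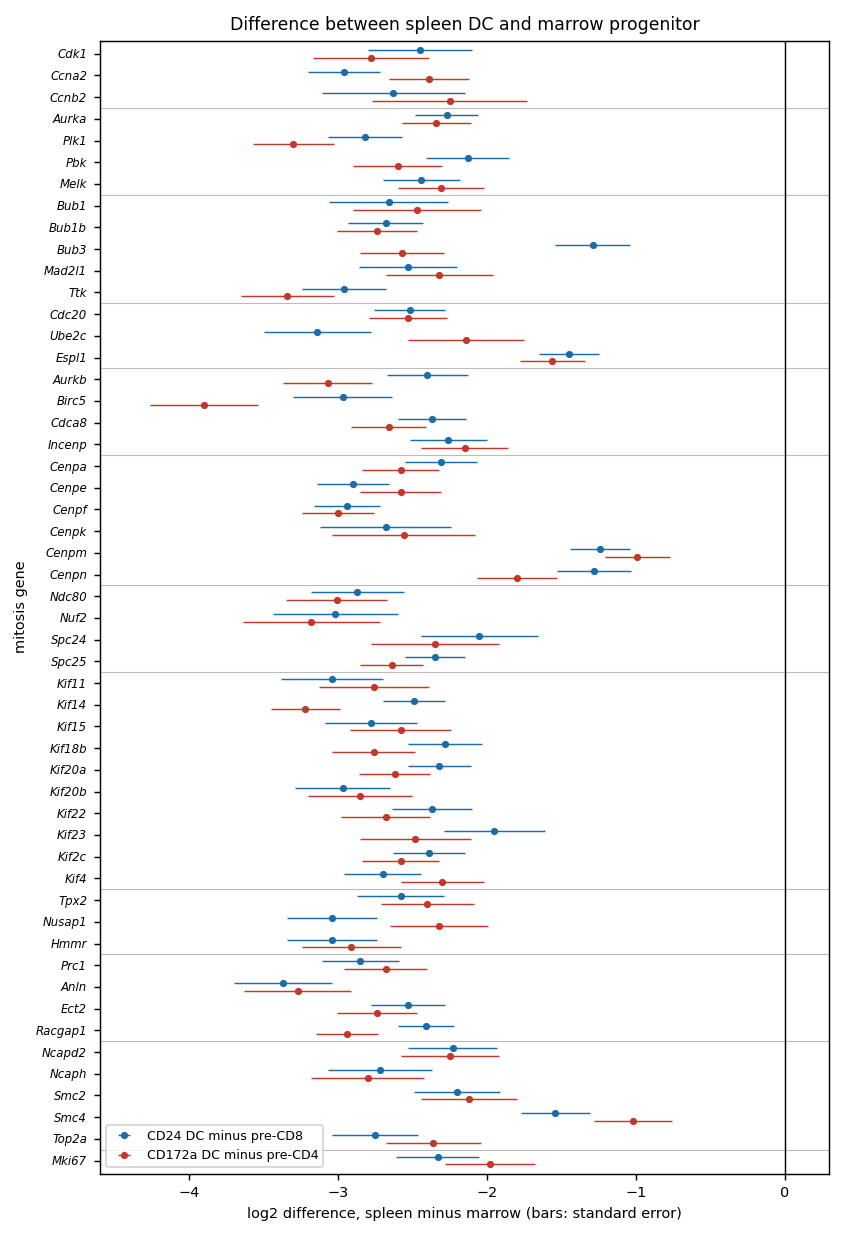
Log2 difference of each mitosis gene, CD24 DC minus pre-CD8 (blue) and CD172a DC minus pre-CD4 (red), with bars of 1 standard error from limma, grouped by role as in the heat map. All points lie below 0, with Birc5 at -3.90 and Cenpm, Cenpn, Espl1, Smc4 and, in blue, Bub3 nearest to 0.

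CDK1 and its cyclins fell in both lineages. Cdk1, the kinase that starts mitosis, read 7.70, 6.93 and 6.07 in CD24 DCs against 9.56 and 9.16 in pre-CD8 cells, and 6.60 and 7.03 in CD172a DCs against 9.70 and 9.48 in pre-CD4 cells. Its difference was -2.45 ± 0.35 (SE) between CD24 DCs and pre-CD8 cells and -2.78 ± 0.39 between CD172a DCs and pre-CD4 cells. Ccna2, cyclin A2, read 7.45, 7.28 and 6.71 in CD24 DCs against 10.03 and 10.18 in pre-CD8 cells, a fall of 7.78-fold (limma adjusted p = 1.29e-05). In CD172a DCs it read 7.74 and 8.25, against 10.28 and 10.49 in pre-CD4 cells, a fall of 5.25-fold. Ccnb2, cyclin B2, averaged 7.37 ± 1.24 (SD) in CD24 DCs against 10.00 ± 0.10 in pre-CD8 cells, and 8.12 ± 0.24 in CD172a DCs against 10.37 in pre-CD4 cells. CD24 DC 3 stood apart for this gene, at 5.94 beside 7.96 and 8.20 on the other CD24 DC arrays. Leaving out pre-CD8 1 (adjusted p = 0.0509), pre-CD4 1 (0.0758), pre-CD4 2 (0.0554) or CD172a DC 1 (0.1) ended the Ccnb2 call in that array's comparison. With the interquartile range as covariate, its difference between CD172a DCs and pre-CD4 cells was -0.99 (adjusted p = 0.328), beside -2.25 without it.

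Among the mitotic kinases, Plk1, which acts at centrosomes, kinetochores and the midbody, fell most. It read 6.25, 6.63 and 5.90 in CD24 DCs against 9.08 on both pre-CD8 arrays, and 5.59 and 6.31 in CD172a DCs against 9.20 and 9.31 in pre-CD4 cells. The groups were far apart, with falls of 7.05-fold in CD24 DCs (adjusted p = 1.74e-05) and 9.85-fold in CD172a DCs (5.5e-06). Aurka, the spindle pole kinase Aurora A, differed by -2.27 ± 0.21 between CD24 DCs and pre-CD8 cells and by -2.34 ± 0.23 between CD172a DCs and pre-CD4 cells. Pbk, a kinase active in mitosis, differed by -2.13 and -2.60 in the same comparisons, and Melk, a kinase of dividing progenitors, by -2.44 and -2.31.

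Of the 5 spindle checkpoint genes, Ttk, which encodes the kinase MPS1 at the head of the checkpoint, had the clearest separation of all members. It read 5.75, 5.64 and 4.77 in CD24 DCs against 8.28 and 8.42 in pre-CD8 cells, a difference of -2.96 ± 0.28 (adjusted p = 2.99e-05). In CD172a DCs it read 5.0 and 5.58, against 8.48 and 8.78 in pre-CD4 cells, a difference of -3.34 ± 0.31 (1.39e-05). Bub1 and Bub1b (BUBR1), kinetochore partners in the checkpoint, differed by -2.66 and -2.68 in CD24 DCs and by -2.47 and -2.74 in CD172a DCs. Bub1b averaged 6.24 ± 0.42 in CD24 DCs against 8.92 ± 0.12 in pre-CD8 cells, and 6.49 ± 0.26 in CD172a DCs against 9.23 ± 0.25 in pre-CD4 cells. Mad2l1, which encodes the APC/C inhibitor MAD2, differed by -2.53 and -2.32.

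Bub3 varied least like the other members. It encodes the adaptor that brings BUB1 and BUBR1 to kinetochores. It read 7.95, 7.35 and 7.23 in CD24 DCs and 9.07 and 8.53 in pre-CD8 cells, a difference of -1.29 ± 0.25 (adjusted p = 0.00673). In CD172a DCs it read 6.36 and 6.80, against 9.29 and 9.0 in pre-CD4 cells, a difference of -2.57 ± 0.28 (5.37e-05). The CD24 DC arrays thus lay above the CD172a DC arrays. Over the 12 arrays Bub3 had a Pearson r of 0.908 with the median of the other members, the lowest of the 52, where Hmmr had 0.996, the highest. The Bub3 call between CD24 DCs and pre-CD8 cells was lost without pre-CD8 1 (adjusted p = 0.15) and with only these groups in the fit (0.0586).

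Genes of the APC/C and of sister chromatid separation differed in size. Ube2c, the E2 enzyme that works with the APC/C, read 7.17, 7.54 and 6.02 in CD24 DCs against 10.05 on both pre-CD8 arrays, an 8.81-fold fall (adjusted p = 0.000106). It read 8.24 and 7.92 in CD172a DCs against 9.91 and 10.55 in pre-CD4 cells, a 4.42-fold fall (0.00262). Cdc20, the mitotic activator of the APC/C, averaged 6.09 ± 0.36 in CD24 DCs against 8.62 ± 0.24 in pre-CD8 cells, and 6.27 ± 0.37 in CD172a DCs against 8.79 ± 0.02 in pre-CD4 cells. Espl1, separase, which cleaves cohesin, fell less, by 1.45 in CD24 DCs against pre-CD8 cells and by 1.56 in CD172a DCs against pre-CD4 cells. The printed promoters of Ube2c and Espl1 both hold the motif with a CCAAT box upstream of it.

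The chromosomal passenger complex joins the kinase Aurora B to INCENP, survivin and borealin and corrects wrong attachments. Birc5, survivin, read 7.19, 6.09 and 5.85 in CD24 DCs against 9.66 and 9.03 in pre-CD8 cells. It read 5.75 and 5.98 in CD172a DCs against 9.82 and 9.71 in pre-CD4 cells. The second of these was the largest fall of any member in either lineage, 15-fold (difference -3.90 ± 0.36, adjusted p = 1.5e-05), beside 7.83-fold in CD24 DCs (9.22e-05). Aurkb, Aurora B, read 6.61 and 7.08 in CD172a DCs against 9.92 and 9.91 in pre-CD4 cells, a difference of -3.07 ± 0.30, and it averaged 6.89 ± 0.47 in CD24 DCs against 9.30 ± 0.16 in pre-CD8 cells. Cdca8, borealin, differed by -2.37 in CD24 DCs and -2.66 in CD172a DCs, and Incenp, the scaffold, by -2.26 and -2.15.

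Centromere and CENP genes held both large and small falls. Cenpf, a kinetochore and nuclear envelope protein of G2 and M phase, read 6.12, 6.22 and 5.73 in CD24 DCs against 8.95 and 8.98 in pre-CD8 cells. It read 5.97 and 6.40 in CD172a DCs against 9.06 and 9.32 in pre-CD4 cells. The differences, -2.94 ± 0.22 (adjusted p = 7.12e-06) and -3.00 ± 0.24 (4.1e-06), were close in both lineages. Cenpe, a kinetochore motor, read 6.36, 6.70 and 5.97 in CD24 DCs against 9.16 and 9.33 in pre-CD8 cells, a fall of 7.47-fold, and differed by -2.58 between CD172a DCs and pre-CD4 cells. Cenpa, the histone H3 variant of centromeres, averaged 6.30 ± 0.16 in CD24 DCs against 8.61 ± 0.31 in pre-CD8 cells, and 6.52 ± 0.06 in CD172a DCs against 9.10 ± 0.22 in pre-CD4 cells.

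3 CENP genes of the constitutive centromere network stood elsewhere in the range. Cenpk differed by -2.68 ± 0.44 in CD24 DCs and -2.56 ± 0.48 in CD172a DCs. The second of these was -1.24 with the interquartile covariate (adjusted p = 0.082), and its call was also lost without the 5 arrays numbered 1 (0.091). Cenpm had the smallest fall of all in both lineages, with 5.70, 5.59 and 5.61 in CD24 DCs against 6.99 and 6.77 in pre-CD8 cells, and 5.94 and 6.20 in CD172a DCs against 7.22 and 6.91 in pre-CD4 cells. The arrays of each pair of groups did not overlap, with folds of 2.37 (adjusted p = 0.00169) and 1.99 (0.00935). Cenpn differed by -1.28 in CD24 DCs and -1.80 in CD172a DCs. Calls of Cenpn were lost without pre-CD8 1 (0.0517) or pre-CD8 2 (0.054), and those of Cenpm in CD172a DCs without pre-CD4 1 (0.116) or CD172a DC 1 (0.0923).

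The 4 subunits of the NDC80 complex, which grips microtubules at the kinetochore, fell together. Nuf2 read 7.26, 6.05 and 5.54 in CD24 DCs against 9.35 and 9.26 in pre-CD8 cells, a difference of -3.02 ± 0.42 (adjusted p = 0.00051). It read 5.79 and 7.02 in CD172a DCs against 9.5 and 9.68 in pre-CD4 cells, a difference of -3.18 ± 0.46 (0.000487). Its spleen arrays were widely spread, with SDs of 0.88 in CD24 DCs and 0.87 in CD172a DCs. Ndc80 averaged 6.54 ± 0.45 in CD24 DCs against 9.42 ± 0.21 in pre-CD8 cells, and 6.69 ± 0.74 in CD172a DCs against 9.70 ± 0.24 in pre-CD4 cells. Spc25 differed by -2.35 and -2.64, and Spc24 by -2.05 and -2.35. Spc24 was uneven within pre-CD8 cells, at 9.08 and 8.03, and its call between CD24 DCs and pre-CD8 cells was lost without pre-CD8 1 (0.133).

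All 10 kinesin genes, the motors that build and slide the spindle and serve chromosome arms and the midzone, were called lower in both lineages. Kif11, the motor EG5 that pushes spindle poles apart, read 7.26, 7.22 and 5.89 in CD24 DCs against 9.74 and 9.93 in pre-CD8 cells, an 8.24-fold fall (adjusted p = 9.2e-05). It averaged 7.45 ± 0.35 in CD172a DCs against 10.20 ± 0.17 in pre-CD4 cells. Kif14, a cytokinesis motor, read 6.17, 5.90 and 5.97 in CD24 DCs against 8.50 on both pre-CD8 arrays, and 5.49 and 5.87 in CD172a DCs against 8.80 and 9.0 in pre-CD4 cells. Its difference of -3.22 ± 0.23 between CD172a DCs and pre-CD4 cells had the smallest adjusted p of any member there (1.88e-06). Kif20b, a motor of cytokinesis, differed by -2.97 in CD24 DCs and -2.85 in CD172a DCs, and Kif15, a spindle motor beside EG5, by -2.78 and -2.58. Kif4, a chromosome motor, differed by -2.70 and -2.30, Kif2c (MCAK), which takes microtubules apart, by -2.39 and -2.58, and Kif22, which moves chromosome arms, by -2.37 and -2.68. Kif20a (MKLP2), which brings Aurora B to the midzone, differed by -2.32 and -2.62, and Kif18b, a plus-end motor, by -2.28 and -2.76. Kif23 (MKLP1), the motor of centralspindlin, had the smallest fall of the 10 in CD24 DCs (-1.95), with 8.54, 8.80 and 7.46 in CD24 DCs against 10.01 and 10.43 in pre-CD8 cells.

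Spindle assembly and cytokinesis genes included some of the largest falls. Hmmr, a spindle pole protein, read 5.84, 5.61 and 4.58 in CD24 DCs against 8.46 and 8.31 in pre-CD8 cells, and 5.77 and 5.81 in CD172a DCs against 8.53 and 8.87 in pre-CD4 cells. The falls were 8.24-fold (adjusted p = 3.64e-05) and 7.53-fold (7.14e-05). Nusap1, which bundles spindle microtubules near chromosomes, read 7.29, 7.12 and 6.04 in CD24 DCs against 9.88 and 9.83 in pre-CD8 cells, a difference of -3.04 ± 0.30. It differed by -2.32 ± 0.33 between CD172a DCs and pre-CD4 cells. Tpx2, which activates Aurora A on the spindle, differed by -2.58 and -2.40.

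Anln encodes anillin, the scaffold of the cleavage furrow, and fell most of all members in CD24 DCs. It read 6.05, 6.15 and 5.23 in CD24 DCs against 9.02 and 9.35 in pre-CD8 cells, a 10.3-fold fall (difference -3.37 ± 0.33, adjusted p = 3.58e-05). In CD172a DCs it read 5.87 and 6.92, against 9.38 and 9.94 in pre-CD4 cells, a 9.62-fold fall (6.24e-05). Racgap1, the GTPase-activating subunit of centralspindlin, read 6.66, 6.70 and 6.36 in CD24 DCs against 8.97 and 9.0 in pre-CD8 cells, and 6.36 and 6.60 in CD172a DCs against 9.32 and 9.53 in pre-CD4 cells. Its spread was small in each of these groups (SD 0.02 to 0.18), and it differed by -2.41 ± 0.19 and -2.94 ± 0.21. Prc1, which cross-links the midzone, differed by -2.85 and -2.68, and Ect2, the exchange factor that activates RhoA, by -2.53 and -2.74.

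Condensin subunits and topoisomerase II shape chromosomes. Top2a averaged 7.70 ± 0.52 in CD24 DCs against 10.46 ± 0.25 in pre-CD8 cells, and 8.39 ± 0.38 in CD172a DCs against 10.75 ± 0.33 in pre-CD4 cells. The condensin I subunits Ncaph and Ncapd2 differed by -2.72 and -2.23 in CD24 DCs and by -2.80 and -2.25 in CD172a DCs, and the core subunit Smc2 by -2.20 and -2.12. Smc4, the other core subunit, fell less, with 9.30, 9.42 and 8.73 in CD24 DCs against 10.59 and 10.78 in pre-CD8 cells, a difference of -1.54 ± 0.23. It read 9.75 and 9.83 in CD172a DCs against 10.69 and 10.93 in pre-CD4 cells. The call between CD172a DCs and pre-CD4 cells, at -1.02 ± 0.26 (adjusted p = 0.0187), was lost on leaving out any of those 4 arrays (0.0659 to 0.114). Mki67, which coats mitotic chromosomes and is the usual marker of dividing cells, averaged 8.53 ± 0.48 in CD24 DCs against 10.86 ± 0.22 in pre-CD8 cells, and 9.04 ± 0.01 in CD172a DCs against 11.02 ± 0.31 in pre-CD4 cells.

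The falls of the 2 lineages were partly alike in order. Over the 52 members they had a Pearson r of 0.65 and a Spearman rho of 0.51, given as a description, with no array shared between the comparisons. The fall was larger in the cDC1 lineage for 23 members and in the cDC2 lineage for 29. In the test of the difference between the falls, 0 of 52 members were called, where 1.03% of all genes were. The smallest adjusted p was 0.167, for Bub3 (1.28 ± 0.38, a smaller fall in the cDC1 lineage), and at an unadjusted p under 0.05 Bub3 and Kif14 (0.73 ± 0.31) had smaller falls in the cDC1 lineage and no member a larger one. The 36 measured members with the promoter motif had median falls of -2.51 in CD24 DCs and -2.61 in CD172a DCs, and the 8 without it -2.81 and -2.57, with no test made.

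Between the spleen DCs themselves, most members were lower in CD24 DCs but none passed the test. With CD24 DCs against CD172a DCs, 0 of 52 were called, where 3.21% of all genes were called higher and 2.37% lower by limma, and 1 member was higher and 10 were lower at an unadjusted p under 0.05. The difference was negative in 38 members and positive in 14, with a median of -0.28. The arrays did not overlap in 2 members with CD24 DCs higher and in 13 with CD24 DCs lower, where 14.1% and 12.9% of all genes did so. The largest were Ube2c (-1.17 ± 0.36, adjusted p = 0.0828), Nusap1 (-1.05 ± 0.30, 0.0665) and Bub3 (0.93 ± 0.25, 0.0501). CD24 DC 3 was the lowest array of its group in 45 members, and it was also the array with the narrowest interquartile range. Without it the median difference was -0.03. The median was -0.53 without CD24 DC 1, when Ccna2, Nusap1 and Prc1 were called lower, -0.40 without CD24 DC 2, when Ube2c was called lower, -0.43 without CD172a DC 1 and -0.17 without CD172a DC 2. Ccna2 (-0.85) was called in 5 of the 22 alternative settings and Bub3 in 9.

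Within marrow, pre-CD4 cells had the highest levels. Against CDPs, the difference was positive in 51 of 52 members (median 0.56) and 5 were called higher, or 9.62%, where 2.32% of all genes were. Racgap1 read 9.32 and 9.53 in pre-CD4 cells against 8.11, 8.31 and 8.4 in CDPs, a 2.23-fold rise (adjusted p = 0.00365). Melk read 8.39 and 8.48 in pre-CD4 cells against 7.36, 7.33 and 7.32 in CDPs, a 2.14-fold rise (0.0291). Both pairs of groups were apart by more than the spread within them.

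Cenpf read 9.06 and 9.32 in pre-CD4 cells against 8.09, 8.38 and 8.27 in CDPs, a difference of 0.94 ± 0.22 (adjusted p = 0.0234). Kif14 read 8.80 and 9.0 in pre-CD4 cells against 7.75, 8.14 and 8.16 in CDPs, a difference of 0.88 ± 0.21 (0.0262). Cenpa read 9.25 and 8.94 in pre-CD4 cells against 8.60, 7.95 and 7.98 in CDPs, a difference of 0.92 ± 0.24 (0.0451). These calls rested on few arrays. All 5 were lost without pre-CD4 2, 4 of the 5 without pre-CD4 1 or CDP 3, and 3 without CDP 1 or CDP 2, while 13 members were called without CD24 DC 3. In 43 members the arrays did not overlap with pre-CD4 higher, where 18.5% of all genes did so, and in 1, Cenpk, with CDP higher, where 18.1% did so. Members share their arrays, here and in every comparison, so counts over members are not separate observations. Smallest in size were Cenpm (0.06), Cenpn (0.08) and Cenpk (-0.10). Cdk1 averaged 9.59 in pre-CD4 cells and 9.37 in CDPs, and Mki67 averaged 11.02 in pre-CD4 cells and 10.53 in CDPs, neither called.

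Pre-CD8 cells lay between. Against CDPs, 0 of 52 were called, where 2.29% of all genes were called higher and 2.47% lower by limma, and 5 members were higher and 0 lower at an unadjusted p under 0.05. The difference was positive in 41 members and negative in 11, with a median of 0.25. The largest were Melk (0.85 ± 0.26, adjusted p = 0.0918), Cenpf (0.72 ± 0.22, 0.0855) and Racgap1 (0.71 ± 0.19, 0.0554), and Cenpn (-0.35) and Ncapd2 (-0.34) were the most negative. The arrays did not overlap in 25 members with pre-CD8 higher and in 4 with CDP higher, where 18.5% and 17.6% of all genes did so. Both progenitors were set against the same CDP arrays, so their differences are not independent. Racgap1, Melk and Cenpf led in both, with pre-CD8 values of 8.97 and 9.0 for Racgap1, 8.29 and 8.08 for Melk and 8.95 and 8.98 for Cenpf.

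Directly against pre-CD4 cells, pre-CD8 cells had the lower mean in 52 of 52 members, where 48.5% of all genes did, yet 0 were called, where 0.703% of all genes were in either direction. By limma 2 members were lower at an unadjusted p under 0.05, and the smallest adjusted p was 0.493, for Ect2. The median difference was -0.32 (range -0.78 for Ect2 to -0.12 for Smc4), close to the median standard error of 0.30 of 1 gene. It was -0.20 without pre-CD4 2 and -0.41 without pre-CD4 1. In 35 members both pre-CD8 arrays lay below both pre-CD4 arrays, where 17.0% of all genes did so. Ect2 read 8.4 and 8.43 in pre-CD8 cells against 8.95 and 9.42 in pre-CD4 cells. Members share their arrays, and pre-CD4 2 was above pre-CD4 1 in 38 of them, so this common shift is 1 observation on 4 arrays rather than 52.

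**Figure D4:**
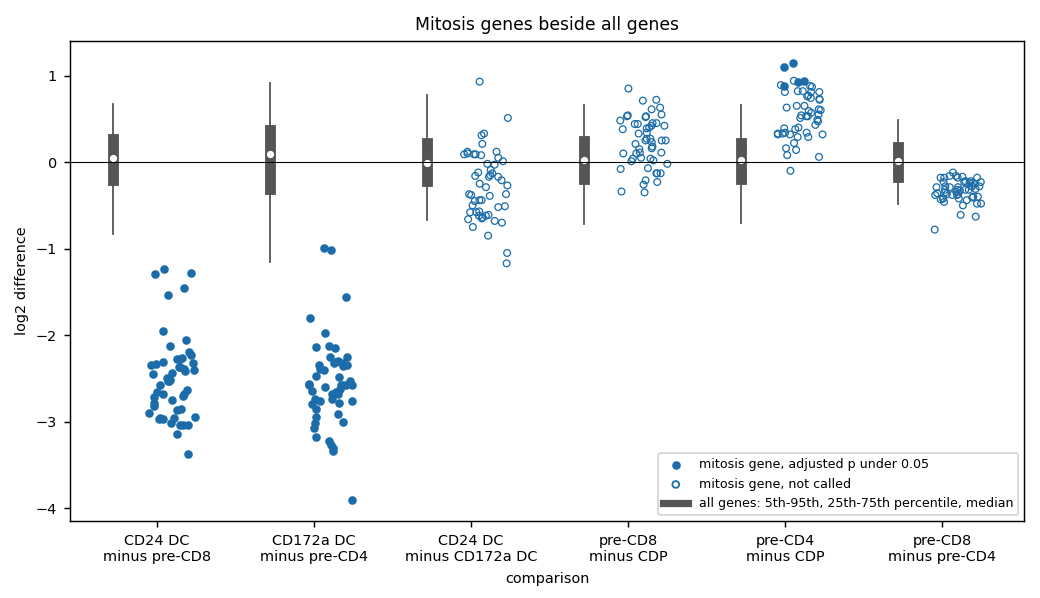
Log2 differences of the 52 mitosis genes in 6 comparisons (filled points: adjusted p under 0.05; open points: not called), beside all 22184 genes (thin and thick grey bars: 5 to 95 and 25 to 75 percentile range, white dot: median). In the first pair of comparisons all points are filled and lie below the thick grey bars. They also lie below the thin bars, except Cenpm (-0.99) and Smc4 (-1.02) in CD172a DCs minus pre-CD4 cells. There the 5 percentile of all genes was -1.16. The only filled points in the other comparisons are the 5 genes higher in pre-CD4 cells than in CDPs.

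Other genes of the cell cycle were read in the same way. Of all genes, 3.66% were called lower in CD24 DCs against pre-CD8 cells and 8.02% in CD172a DCs against pre-CD4 cells. Against CDPs, 2.32% were called higher in pre-CD4 cells, and 2.29% higher and 2.47% lower in pre-CD8 cells. The share lower in pre-CD4 cells than in CDPs is not given here, so such counts have no share beside them. Of 60 other mitosis genes measured, 54 fell in CD24 DCs against pre-CD8 cells (median -1.90) and 53 in CD172a DCs against pre-CD4 cells (median -2.01), and none rose. Among them Cdc25c, a phosphatase that activates CDK1, differed by -3.13 in CD24 DCs and -3.09 in CD172a DCs, and Ska3, a kinetochore partner of NDC80, by -3.15 and -2.92. Pttg1, securin, the inhibitor of separase, differed by 0.24 ± 0.19 in CD24 DCs (adjusted p = 0.578) and 0.20 ± 0.21 in CD172a DCs (0.582), the only gene of the list with positive differences. Against CDPs, 9 of the 60 rose in pre-CD4 cells, led by Cdc25b (1.28), Cenpl (1.14) and Ckap2 (1.13), and 0 were called in pre-CD8 cells.

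DNA replication genes, which act in S phase, also fell in spleen, where 11 of 23 were lower in CD24 DCs against pre-CD8 cells (median -1.03) and 14 of 23 in CD172a DCs against pre-CD4 cells (median -1.28). In marrow their median lay below 0 in both progenitors against CDPs. Pre-CD8 cells had 7 of 23 called lower (median -0.94), among them the helicase subunits Mcm3 (-1.42), Mcm6 (-1.31) and Mcm7 (-1.14). Pre-CD4 cells had 2 of 23 called lower (median -0.59), Mcm3 (-1.10) and the licensing factor Cdt1 (-0.98). With median centring the counts were 4 and 1, and 7 in CD24 DCs against pre-CD8 cells.

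G1 and inhibitor genes moved one by one. Cdk6, a G1 kinase of progenitors, averaged 7.78 in pre-CD8 cells, 7.61 in pre-CD4 cells and 10.66 in CDPs, with differences of -2.88 and -3.06 from CDPs. Cdkn2c, which encodes the CDK4 and CDK6 inhibitor p18, averaged 8.29 in pre-CD8 cells, 8.75 in pre-CD4 cells and 7.42 in CDPs, and differed by -2.42 in CD24 DCs against pre-CD8 cells and by -1.82 in CD172a DCs against pre-CD4 cells. In all, 5 of 14 genes of this list fell in CD24 DCs and 6 in CD172a DCs, with none higher.

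Regulators of G2/M transcription fell in part. In CD24 DCs 9 of 23 and in CD172a DCs 11 of 23 were called lower and none higher. Foxm1, a forkhead factor of late cell cycle genes, differed by -2.41 in CD24 DCs and -2.66 in CD172a DCs, E2f8, a repressor of the E2F family, by -2.66 and -2.64, and Lin9, a subunit of DREAM and MMB, by -2.05 and -2.01. APC/C subunits and partners had 5 of 15 lower in CD24 DCs and 8 of 15 in CD172a DCs, led by Fbxo5 (-2.62), the APC/C inhibitor EMI1, in CD24 DCs and by Ube2s (-2.40), a chain-building E2 enzyme, in CD172a DCs. Cohesin genes had 5 of 10 and 4 of 10 lower, led by Smc3 (-1.19 and -1.43). In these 3 lists the medians lay between -0.60 and -0.96.

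**Figure D5:**
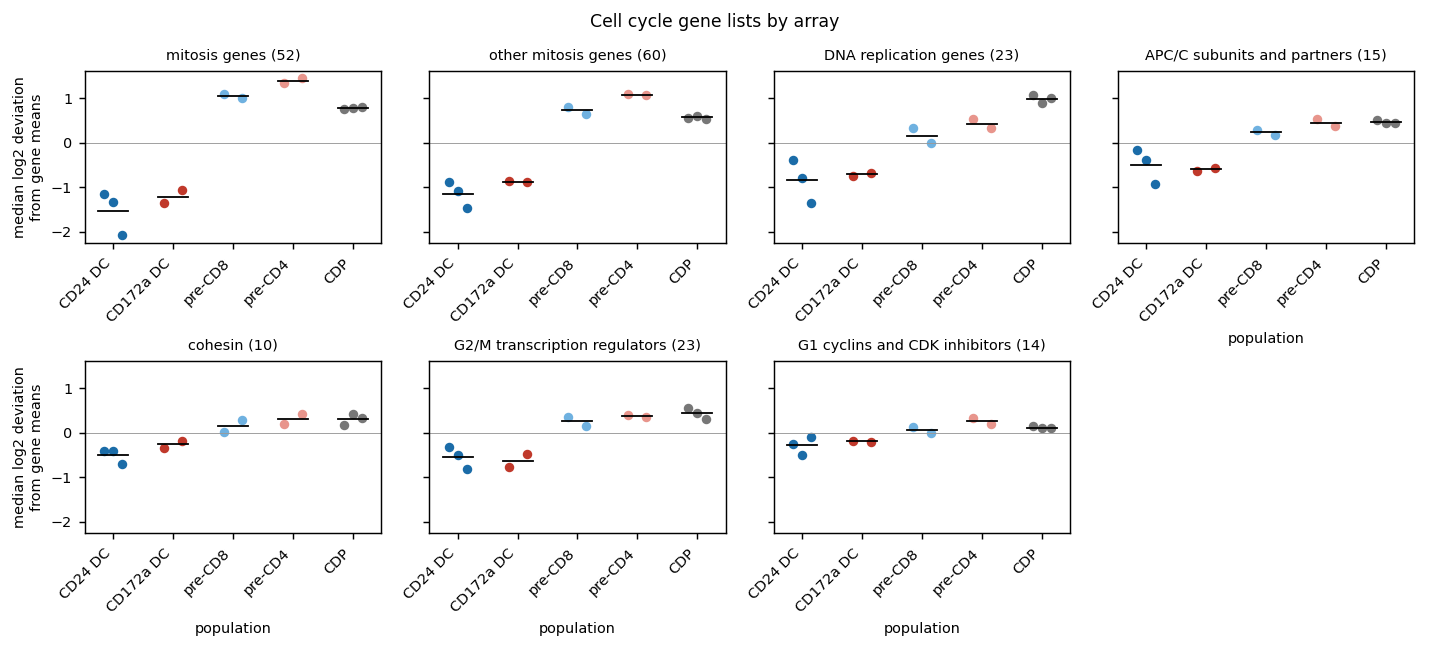
Median log2 deviation from the gene means over 7 lists of cell cycle genes (number of genes in brackets), per array (points, replicates from left to right) and as the mean of each population (line). Pre-CD4 is highest for both mitosis panels and CDP for DNA replication. All 7 panels have the spleen DCs below the marrow cells, and CD24 DC 3 is the lowest point in all but G1 cyclins and CDK inhibitors, where it is the highest spleen array at -0.09 and CD24 DC 2 is lowest at -0.50.

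Markers of other cells were read on the same arrays. Of all genes, 3.66% were called lower in CD24 DCs against pre-CD8 cells and 8.02% in CD172a DCs against pre-CD4 cells. Against CDPs, 2.32% were called higher in pre-CD4 cells and 2.47% lower in pre-CD8 cells, and 0.703% differed in either direction between the progenitors. Shares lower in pre-CD4 cells than in CDPs, or higher in spleen DCs than in their progenitors, are not given here, so those counts have none beside them. Of 10 neutrophil granule markers, 4 were called lower in CD24 DCs than in pre-CD8 cells and 1 in CD172a DCs than in pre-CD4 cells. Against CDPs, 3 were called lower in pre-CD8 cells and 4 in pre-CD4 cells. Yet the pre-CD8 mean was above that of CDPs in 6 of the 10 and below it in 4 (median difference 0.59). It was above that of pre-CD4 cells in 9 and below it in 1 (median 1.67), with Ctsg called higher (1.72, limma adjusted p = 0.0297). Standard errors were large for S100a8 (1.73 ± 1.88), S100a9 (1.28 ± 1.56), Ngp (1.62 ± 1.55) and Camp (2.79 ± 1.31), none of them called. The 2 pre-CD8 arrays were far apart in the mean of the 10 markers, at 6.87 and 9.33, so these signs rest on uneven arrays. The mean level of the 10 markers spanned 4.71 to 6.25 in CD24 DCs, 4.93 to 6.46 in CD172a DCs, 6.87 to 9.33 in pre-CD8 cells, 6.31 to 6.60 in pre-CD4 cells and 7.56 to 9.01 in CDPs. Mpo, which myeloid progenitors also express, averaged 9.57 in pre-CD8 cells, 7.42 in pre-CD4 cells and 12.33 in CDPs. Of 7 markers of plasmacytoid DCs (pDCs), 3 were called higher in pre-CD4 cells than in CDPs, namely Siglech (2.12), Ly6d (1.73) and Tcf4 (1.10). The pre-CD4 mean was above that of CDPs in 5 of the 7 and below it in 2. These 2 were Cox6a2 (-0.17) and Ccr9 (-0.08), neither called. Among all populations, Cox6a2 was highest in CDPs, and Ccr9 was lowest in pre-CD4 cells. In CD172a DCs against pre-CD4 cells 4 were lower, among them Bst2 (-3.34) and Tcf4 (-2.03), and 1 was higher. In CD24 DCs against pre-CD8 cells 1 was lower, and in pre-CD8 cells 2 were lower than in CDPs and 2 lower than in pre-CD4 cells. Their mean level spanned 5.80 to 6.03 in CD24 DCs, 6.00 to 6.19 in CD172a DCs, 6.09 to 6.18 in pre-CD8 cells, 7.21 to 7.65 in pre-CD4 cells and 6.21 to 6.66 in CDPs, so it was highest in the population with the highest mitosis levels. Of 10 monocyte and macrophage markers, 3 were higher and 2 lower in CD24 DCs than in pre-CD8 cells, and 4 were higher and 2 lower in CD172a DCs than in pre-CD4 cells. Lower in both were Ly6c2 and Ccr2, and higher in both were Vcam1 and Spic. Their mean level spanned 5.91 to 6.15 in CD24 DCs, 6.43 to 6.53 in CD172a DCs, 5.79 to 6.20 in pre-CD8 cells, 6.26 to 6.43 in pre-CD4 cells and 5.85 to 6.27 in CDPs. B cell, T cell, NK cell and megakaryocyte markers had at most 1 gene called per list and comparison, with Ms4a1, a B cell gene, higher in both spleen DCs than in their progenitors. The part of any of these cells in the mitosis results was not tested. The 5 erythroid markers measured had mean levels of 4.81 to 5.59 over all arrays, near the array medians of all probe sets, and 0 of 5 were called in any comparison.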

How the data were processed

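The deposited values are log2 signals of 35145 probe sets on 12 arrays, and how the authors normalized them is not given in the sources used here. Per the labels, RNA of sorted cells went through whole-transcriptome amplification (NuGEN Ovation Pico WTA) before biotin labelling, which can alter the span of signals from array to array. Of the probe sets, 23525 carried 1 gene symbol, 1810 several and 9810 none in the platform annotation. A gene took its brightest single-symbol probe set by mean, which gave 22184 genes. Group means of the 5 populations were fitted with limma 3.58.1 in R 4.3.3 (lmFit, eBayes, residual degrees of freedom 7), and p-values were adjusted by Benjamini-Hochberg over all genes in each of 7 comparisons. The number of arrays, 2 or 3 a group, limits the precision.

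Members and lists were chosen with earlier results of these data known. Every member is named, at most 12 called members per comparison are given by array, and from each list the called genes of largest difference. Promoters came from the RefSeq table. The fit was tested on simulated data. Alternatives were a replicate block, quantile normalization, median centring, the interquartile range as covariate, a filter below the 40 percentile of mean signal, other uses of probe sets, fewer samples in the fit, limma's trend and robust priors, and leaving out arrays. Scaling of the other lists was added after seeing the data.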

Additional observations from a re-analysis of the deposited data

How the results depend on the processing

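With 2 or 3 arrays a group, only large differences pass the test, and no value separates biological from technical spread. Over 22 alternative settings no called member changed direction, 2336 member results kept their call and 62 lost it. The direction could not change in many of these settings, which keep the members' differences and alter only the error or the adjustment. These were the dim-gene filter, other uses of probe sets, trend and robust priors, only the groups compared, and leaving out arrays of other groups. The falls held for 52 members in CD24 DCs against pre-CD8 cells except with only those groups in the fit (51), without the 5 arrays numbered 1 (49) and on leaving out an array (48 to 52). In CD172a DCs against pre-CD4 cells the exceptions were the interquartile covariate (45), the arrays numbered 1 left out (48) and single arrays left out (49 to 52). Counts higher in pre-CD4 cells than in CDPs moved most, from 5 to 2 with median centring, 3 with every probe set tested, 15 with the interquartile covariate, 15 with only those groups, 0 without the arrays numbered 1, and 0 to 13 on leaving out an array. In pre-CD8 cells against CDPs, where none was called, 1 was called higher with quantile normalization, only those groups or trend and robust priors, 2 with the dim-gene filter, 4 with the interquartile covariate and 0 to 3 on leaving out an array. In CD24 DCs against CD172a DCs, 1 (Bub3) was called higher with the replicate block, quantile normalization, the interquartile covariate, the dim-gene filter, the mean of probe sets or trend and robust priors, and 0 to 1 on leaving out an array. There, 3 were called lower with quantile normalization, 4 with the interquartile covariate, 2 with the dim-gene filter, 1 with trend and robust priors and 0 to 3 on leaving out an array. The causes were not tested. Median centring moved the median of all genes by -0.201 in CD172a DCs against pre-CD4 cells and by 0.113 in the test between lineages, and no other comparison by more than 0.1. Arrays share replicate numbers across groups, but no comparison shares 3. Correlations of same-numbered deviations ran from 0.102 to 0.421 between populations other than CD172a DCs and from -0.162 to 0.024 with CD172a DCs, so the numbers do not establish pairs over the design, and the first range is a hint from the data only. With the replicate block the counts were 52 and 52 for the falls and 5 for pre-CD4 cells against CDPs, and it changed no call besides Bub3. It gave the members a median of 0.12 in pre-CD8 cells against CDPs (0.25 without it) and of -0.16 in CD24 DCs against CD172a DCs (-0.28 without it). With the interquartile covariate these were 0.46 and -0.45, and the second was -0.57 without the arrays numbered 1.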

Other observations

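The probe set that carries both Ncapg, a condensin I subunit, and Lcorl read 6.51, 6.22 and 4.88 in CD24 DCs, against 8.56 and 8.63 in pre-CD8 cells. It read 6.10 and 6.37 in CD172a DCs, against 8.62 and 9.07 in pre-CD4 cells, and 8.02, 8.46 and 8.29 in CDPs. The spleen arrays all lay below the marrow arrays, but the signal cannot be assigned to 1 of the 2 genes, and no test was made.

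Outside the members and the lists, 8 genes followed the per-array median of the mitosis genes most closely over the 12 arrays, as a description in which all points share 5 populations. Their Pearson r ran from 0.985 to 0.994. Parpbp, an inhibitor of homologous recombination, averaged 4.88 in CD24 DCs against 7.60 in pre-CD8 cells, and 4.97 in CD172a DCs against 7.77 in pre-CD4 cells. Stil, a centriole duplication factor, averaged 6.03 in CD24 DCs against 8.41 in pre-CD8 cells, and Esco2, a cohesin acetyltransferase, 5.47 against 7.81. The importin Kpna2, the chromatin protein Hmgb2 and the formin Diaph3 were also among the 8. Psat1, an enzyme of serine synthesis, had the highest r, 0.994, and averaged 5.81 in CD24 DCs against 7.64 in pre-CD8 cells, 5.91 in CD172a DCs against 8.06 in pre-CD4 cells, and 7.60 in CDPs. The last was Zfp955a, a zinc finger gene.

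The DNA replication list had its highest level in CDPs and the mitosis list in pre-CD4 cells. The difference between the lists was not tested.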
